A study of Mus musculus with 27 samples.

Results

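The comparison described here asked what minocycline changed in CD11b+ cells of the prefrontal cortex (PFC) of stressed mice. It set the 3 PFC libraries labelled CUMS_M against the 2 PFC libraries labelled CUMS, which are 5 of the 27 samples of the series, and covered the 13169 of 53412 listed genes that had at least 10 counts in at least 2 of those 5 libraries. All 5 libraries came from mice of the strain given as C57BJ6, were sorted as CD11b+ and had the chronic stress protocol, abbreviated CUMS (chronic unpredictable mild stress, a schedule of changing mild stressors). The CUMS_M animals had minocycline in addition. No vehicle is stated for the CUMS animals, and no age, sex, dose or duration of the drug. PFC libraries of unstressed mice (NAIVE, 2 libraries) and hippocampal (HC) libraries of the same strain, sort and treatments (3 CUMS, 3 CUMS_M) are given beside results where they bear on them. So are the 2 HC libraries of unstressed mice, for Per1. The labels do not say whether libraries of a group came from separate animals, so that p-values measure only the spread between these libraries.

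CD11b, encoded by Itgam, is an integrin subunit of myeloid cells, and in brain tissue most cells that carry it are microglia, the resident macrophages. Microglia take up debris and synaptic material and release cytokines, and their homeostatic state is marked by receptors such as Cx3cr1 and P2ry12. Minocycline is a tetracycline antibiotic that enters the brain and is widely used to dampen microglial activation. Microglia lie against the neurovascular unit, in which endothelial cells joined by claudin tight junctions, pericytes in the basement membrane and the end-feet of astrocytes form the blood-brain barrier.

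The 2 CUMS libraries held 12.4 M and 10.6 M counts, and the 3 CUMS_M libraries 10.5 M, 8.62 M and 11.2 M. The microglial identity of the sort was seen in every library: Cx3cr1 was at 7620 and 8122 counts per 1000000 (CPM) in the CUMS libraries and at 9137, 8763 and 7941 in the CUMS_M libraries, and Itgam at 487 and 476 and at 555, 565 and 550. A list of microglial identity genes summed to 76690 and 82020 CPM in CUMS and to 88960, 86730 and 78190 in CUMS_M. Lists for other cell types summed to less but were not absent. The neutrophil list was at 2984 and 2340 and at 4904, 2931 and 1323 CPM. A list for macrophages of the brain borders was at 2152 and 2404 and at 1789, 1661 and 2672. Astrocyte genes summed to 990 and 1110 and to 704, 441 and 528. Some single genes were at 0: the lymphocyte genes Cd3g and Cd8a and the ependymal gene Dnah11 had no count in any of the 5 libraries (0). One library stood apart: all 12 genes of a list for the choroid plexus, the epithelium that makes cerebrospinal fluid, were highest in PFC CUMS_M 3, where Ttr, the thyroxine carrier transthyretin, was at 564 CPM against 1.15 and 2.03 in the CUMS libraries and 2.12 and 1.19 in the other CUMS_M libraries. PFC CUMS_M 2 lay farthest out on the main axis of a principal component analysis of the 5 libraries, at 59.8, with the CUMS libraries at -28.2 and -38 and the other CUMS_M libraries at 7.68 and -1.38 (47.4% of the variance). In sorted bulk RNA, fewer cells of a type and less RNA per cell cannot be told apart.

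In prefrontal CD11b+ cells of stressed mice, 3 genes were lower with minocycline past the threshold and none (0) was higher. Cldn5, the main claudin of the blood-brain barrier, Ptn, the heparin-binding growth factor pleiotrophin, and Plxnb1, the plexin that binds the semaphorin Sema4d, fell by 1.72 to 2.25 on the log2 scale. The threshold was an adjusted p under 0.05 in the edgeR quasi-likelihood test with Benjamini-Hochberg adjustment over all 13169 genes, and 0.0228% of the tested genes passed it. On the higher side, where edgeR called 0, DESeq2 called 4 (Gm42418, Gm37472, Mir142hg and Ttr, the last of them high in PFC CUMS_M 3 alone), and 188 genes stood under 0.05 before adjustment.

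The stretches in front of the start sites of these 3 genes are shown because the 3 passed the threshold. With them is that of Per1, the clock gene whose response differed between the brain regions (described last). Each runs from 250 to 51 bases before the annotated start (200 bases, outside the exons that GENCODE M21 gives the gene), 5′ to 3′ on the gene's strand, from the RefSeq table on GRCm38.p6. Capitals mark matches, on either strand, to the GC box GGGCGG, the E-box CACGTG, the cyclic AMP response element TGACGTCA or the TATA box TATAAA, motifs that do not overlap one another here.
Plxnb1, chr9:109095186-109095385, + strand: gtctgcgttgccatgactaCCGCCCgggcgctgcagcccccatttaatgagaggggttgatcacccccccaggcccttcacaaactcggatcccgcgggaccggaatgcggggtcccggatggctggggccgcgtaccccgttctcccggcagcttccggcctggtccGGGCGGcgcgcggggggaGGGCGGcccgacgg
Cldn5, chr16:18776597-18776796, + strand: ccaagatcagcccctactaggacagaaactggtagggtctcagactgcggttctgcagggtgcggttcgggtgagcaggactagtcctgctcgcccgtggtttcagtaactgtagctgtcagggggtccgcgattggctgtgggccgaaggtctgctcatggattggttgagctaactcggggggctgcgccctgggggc
Ptn, chr6:36810230-36810429, - strand: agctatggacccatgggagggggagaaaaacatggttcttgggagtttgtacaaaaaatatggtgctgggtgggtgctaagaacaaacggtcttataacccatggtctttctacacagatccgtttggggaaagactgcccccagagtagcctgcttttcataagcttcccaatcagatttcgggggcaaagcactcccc
Per1, chr11:69098699-69098898, + strand: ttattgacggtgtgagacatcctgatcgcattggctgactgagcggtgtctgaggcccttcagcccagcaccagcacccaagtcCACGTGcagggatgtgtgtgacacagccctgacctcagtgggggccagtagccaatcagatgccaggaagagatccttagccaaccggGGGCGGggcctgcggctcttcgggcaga
The Plxnb1 stretch held 3 GC boxes and was 72.5% G and C. The Cldn5 and Ptn stretches held none of the 4 motifs and were 61.5% and 49%, against a median of 51.5% over 32851 such stretches. The Per1 stretch, before the upstream of its 2 listed starts, held 1 GC box and 1 E-box, and the stretch before the other start (chr11:69099902-69100101, not printed) held none (0) of the 4 motifs. Of all stretches, 24.6% held the GC box, 4.34% the E-box, 0.828% the cyclic AMP response element and 9.14% the TATA box. A match describes letters only, and no match says only that these letters are not in this window.

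Plxnb1 (chr9:109095389-109119917 of GRCm38) was at 18.4 and 20.8 CPM in the 2 CUMS libraries and at 5.98, 3.34 and 8.27 CPM in the 3 CUMS_M libraries. Its mean went from 19.6 ± 1.67 (SD, n = 2) to 5.87 ± 2.46 (SD, n = 3), a log2 fold change of -1.72 ± 0.27 (SE, edgeR adjusted p = 0.0423). Every treated library lay below every untreated one by a margin larger than the spread within either group. The unstressed PFC libraries, with 3.57 and 4.21 CPM, lay within the range of the treated ones. The antisense gene Gm7628 covers 2.68% of its exon bases, whose reads cannot be assigned without the strand setting.

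Cldn5 (chr16:18776847-18778262) was at 14.4 and 16.1 CPM in the CUMS libraries and at 2.99, 1.79 and 4.61 CPM in the CUMS_M libraries, a log2 fold change of -2.25 ± 0.36 (edgeR adjusted p = 0.0423). The groups did not overlap, and the lowest of the 5 values was in CUMS_M 2. Unstressed libraries held 3.17 and 4.21 CPM.

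Ptn (chr6:36714929-36810220) was at 28.1 and 36.1 CPM in the CUMS libraries and at 11.2, 6.81 and 6.53 CPM in the CUMS_M libraries, a log2 fold change of -1.97 ± 0.31 (edgeR adjusted p = 0.0423). Here CUMS_M 1 was the highest of the treated libraries, and the groups again did not overlap. Unstressed libraries held 5.55 and 6.19 CPM. For all 3 genes the CUMS libraries were the high ones among the 7 PFC libraries: against NAIVE, which is compared with the same CUMS libraries, the log2 fold changes were 2.33 for Plxnb1, 2.04 for Cldn5 and 2.45 for Ptn.

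**Figure D1:**
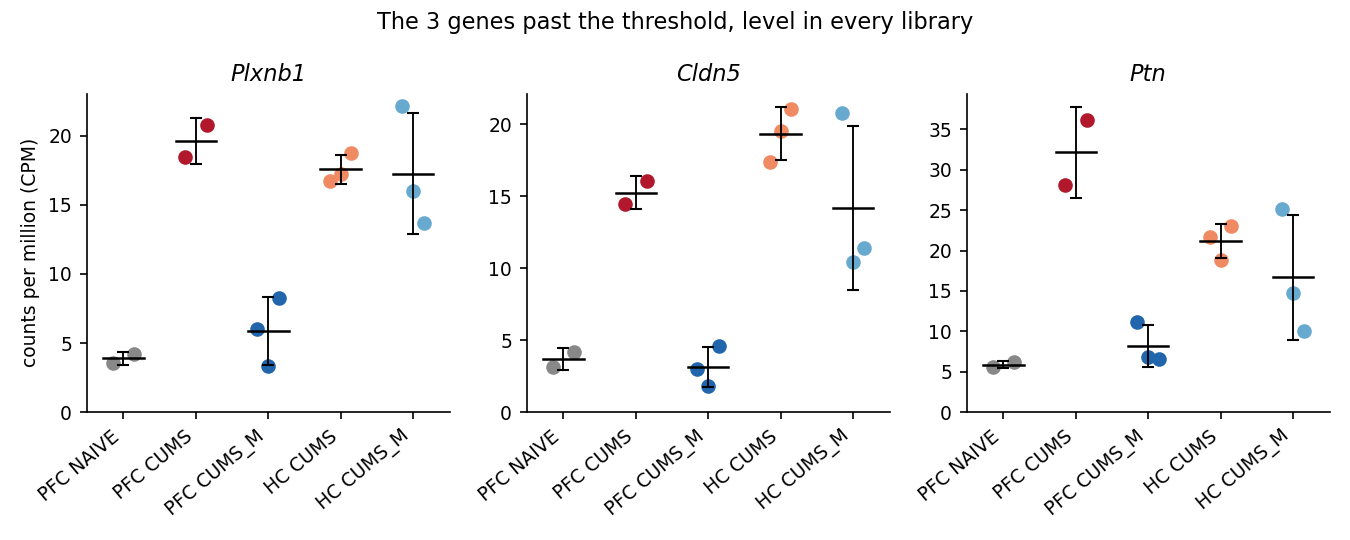
CPM (vertical axes) of Plxnb1, Cldn5 and Ptn in each library (points) of 5 groups, with the mean (horizontal line) and SD (bars). In each panel the 3 PFC CUMS_M points lie below both PFC CUMS points; for Cldn5 they run up to 4.61 against at least 14.4.

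In the hippocampus the same contrast gave log2 fold changes of -0.02 for Plxnb1, -0.44 for Cldn5 and -0.34 for Ptn, and treated and untreated libraries overlapped for each. The difference between the regions was -1.70 ± 0.36 for Plxnb1 (edgeR adjusted p = 0.868), -1.81 ± 0.46 for Cldn5 (0.998) and -1.63 ± 0.41 for Ptn (0.998), so that a regional difference was not shown for these genes. The calls depended on the libraries and on the fit. With either CUMS library left out, or with PFC CUMS_M 2 left out, no gene was called (0 each time). In contrast, 5 genes passed without PFC CUMS_M 1 (Ptn among them, with Plxnb1 at 0.0939 and Cldn5 at 0.134) and 9 without PFC CUMS_M 3 (Plxnb1 and Cldn5 among them, with Ptn at 0.0863), while the log2 fold changes of the 3 genes stayed between -2.65 and -1.46. DESeq2 called 86 genes (82 lower and 4 higher, 0.653% of those tested) and edgeR on the 5 libraries alone 68 (65 lower and 3 higher, 0.516%), and 25 genes were in both sets, 24 of them lower.

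Below the threshold, the lower side held more genes and larger differences than the higher side. An unadjusted p under 0.05 was reached by 732 genes (5.56% of those tested), 544 of them lower (4.13%) and 188 higher (1.43%). A share near 0.05 of the genes is what this cut passes where no gene differs, so that the 732 are not a set of changed genes. The 544 lower genes had a median log2 fold change of -1.70, 458 of them differed by more than 2-fold, and their median level was 3.44 CPM. The 188 higher genes had a median log2 fold change of 0.35, 31 differed by more than 2-fold, and their median level was 51.9 CPM. Low-level genes therefore made up most of the lower side: of the 3356 genes under 5 CPM, 9.92% were lower and 0.715% higher at this p, whereas of the 1998 genes at 100 CPM or more, 0.501% were lower and 3.05% higher. Of all tested genes 226 reached 10 counts only in CUMS libraries and 106 only in CUMS_M libraries. Among the 544 lower genes, 110 reached 10 counts only in CUMS libraries. Those 110 entered the test through the group where they are high, so that their counts and fold changes are partly set by the filter.

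**Figure D2:**
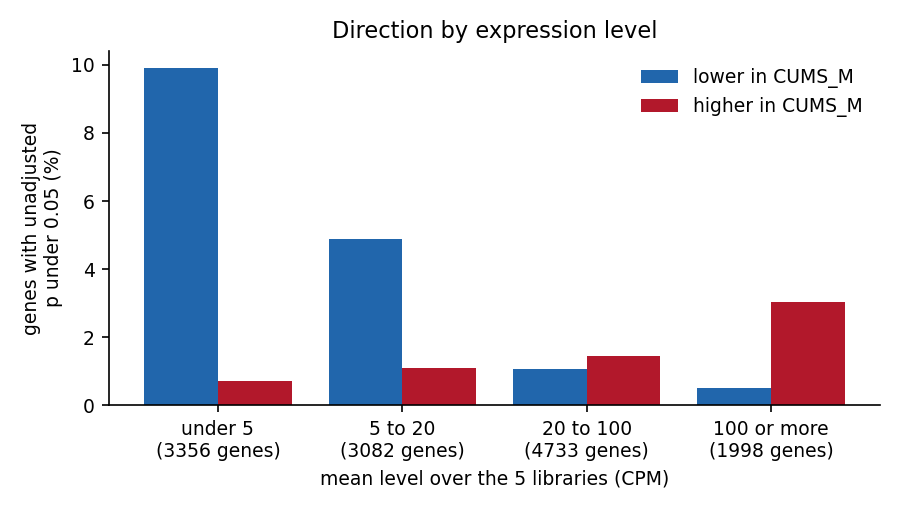
Share of genes with an unadjusted p under 0.05 (vertical axis, percent) by mean level over the 5 libraries (horizontal axis, CPM), separately for lower (blue) and higher (red) in CUMS_M. The lower share goes from 9.92% under 5 CPM to 0.501% at 100 CPM or more, and the higher share from 0.715% to 3.05%.

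After the 3 called genes, the smallest p-values on the lower side belonged to 7 genes whose groups did not overlap (11.5% of all genes were lower without overlap and 9.57% higher without overlap). Sptbn1, a beta-spectrin of the membrane skeleton, was at 67.1 and 70.4 CPM in CUMS and 40.1, 31.3 and 45 in CUMS_M (-0.82 ± 0.15, edgeR adjusted p = 0.0861). Pdgfrb, the PDGF receptor that marks pericytes, was at 6.61 and 6.38 and at 1.45, 1.91 and 1.48 (-2.01 ± 0.37, 0.0861). Sptbn1 was above 30 CPM in every library and had the smallest difference of the 7.

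Scg3, a secretogranin of dense-core vesicles, was at 25.2 and 26.4 CPM in CUMS and 12.3, 5.49 and 6.35 in CUMS_M (-1.67 ± 0.32, edgeR adjusted p = 0.106). Adcyap1r1, the receptor of the neuropeptide PACAP, was at 11.4 and 13.6 and at 4.92, 3.7 and 4.26 (-1.54 ± 0.30, 0.106), and Htra1, a secreted serine protease, at 30.7 and 31.7 and at 13.6, 5.25 and 12.1 (-1.58 ± 0.30, 0.139). All 3 were lower in every CUMS_M library than in either CUMS library, which the rule for naming them required. CUMS_M 2 held the lowest value of each. Ntsr2, a neurotensin receptor of astrocytes, had a log2 fold change of -1.71 ± 0.36 (0.139), and Cald1, the actin-binding caldesmon of contractile cells, a log2 fold change of -1.89 ± 0.40 (0.139).

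Genes of the vessel wall lay mostly on the lower side. Of 16 endothelial marker genes, all tested, 11 were lower at an unadjusted p under 0.05 and 0 higher, against 4.13% and 1.43% of all genes, and 1 (Cldn5) passed the adjusted threshold. Their median log2 fold change was -1.76, against 0.02 over all genes, and 1 of the 16 (Sox17, among the 11) reached 10 counts only in CUMS libraries. Flt1, a VEGF receptor, was at 35.7 and 41.7 CPM in CUMS and at 10.5, 7.28 and 14.5 in CUMS_M (-1.83 ± 0.36, edgeR adjusted p = 0.143), and Ly6c1, a surface protein of brain endothelium and monocytes, at 8.84 and 12.3 and at 3.09, 2.27 and 2.87 (-1.93 ± 0.40, 0.139). Both were lower in every treated library, and both missed the threshold here while passing it in DESeq2 and in the fit of 5 libraries.

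Of 11 pericyte and smooth muscle genes tested (of 12 listed), 6 were lower at that p and 0 higher, with a median of -1.50. In the hippocampus the same contrast gave medians below 0 too, -0.90 for this list and -0.57 for the endothelial list. Rgs5, a G-protein regulator typical of pericytes, was at 20.8 and 26.6 CPM in CUMS and at 1.35, 1.79 and 5.75 in CUMS_M (-2.95 ± 0.55, edgeR adjusted p = 0.142). The highest treated value of Rgs5 was in CUMS_M 3. The basement membrane list (14 of 16 tested) had 7 lower, 0 higher and a median of -1.27, and 1 of the 14, Lama4, reached 10 counts only in CUMS libraries, so that it entered the test through the group where it is high. Col4a2, a chain of collagen IV, was at 8.07 and 8.14 and at 3.19, 1.79 and 1.48 CPM (-1.91 ± 0.41, 0.139), and Lama4, a laminin of vessel walls, was at 1.08 and 1.57 and at 0.0965, 0.119 and 0.261 CPM (-2.93 ± 0.81, 0.277).

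The sums of these lists hold the same genes and are no separate measure of cell type content. The CPM values of the endothelial list summed to 689 and 795 in CUMS and 628, 558 and 577 in CUMS_M, and those of the pericyte list to 65.5 and 100 and 27.4, 13.7 and 35.5. The microglial identity list summed to 76690 and 82020 and 88960, 86730 and 78190, with overlapping groups. The part of RNA from vascular cells or astrocytes in the 3 called genes was not tested. In the unstressed PFC libraries the endothelial list summed to 573 and 611 and the pericyte list to 26.8 and 34.9.

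**Figure D3:**
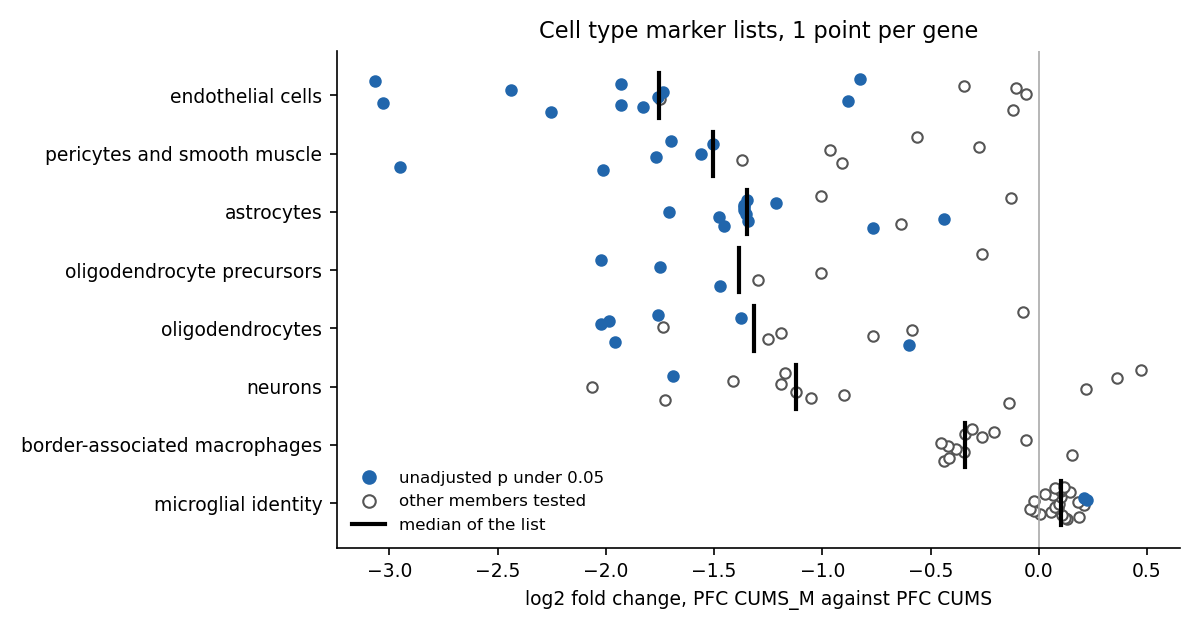
Log2 fold change of PFC CUMS_M against PFC CUMS (horizontal axis) for each tested gene (points) of 8 cell type marker lists, filled where the unadjusted p was under 0.05, with the median of each list (black line). The endothelial median lies at -1.76 and the microglial identity median at 0.10.

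Astrocyte genes lay on the lower side too: 12 of 15 were lower at an unadjusted p under 0.05 and 0 higher, against 4.13% and 1.43% of all genes. All 15 had a log2 fold change below 0, and the median was -1.35. Aqp4, the water channel of astrocyte end-feet, was at 11.5 and 10.1 CPM in CUMS and at 4.44, 1.91 and 5.31 in CUMS_M (-1.45 ± 0.35, edgeR adjusted p = 0.164). Ntsr2 was at 14.5 and 14.4 and at 6.95, 2.27 and 3.92 CPM. None of the 15 passed the adjusted threshold (smallest adjusted p 0.139). The list summed to 990 and 1110 CPM in CUMS, 704, 441 and 528 in CUMS_M and 384 and 380 in NAIVE. In the hippocampus its median log2 fold change for the same contrast was -0.0037, and 10 of its 15 genes had a difference between regions at an unadjusted p under 0.05, all lower in PFC (2.24% of all genes), none past the adjusted threshold.

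Oligodendrocyte genes had 6 of 12 lower at that p, 0 higher and a median of -1.31. Mal, a proteolipid of compact myelin, was at 44.8 and 52.9 CPM in CUMS and at 17.4, 8.84 and 9.66 in CUMS_M (-2.02 ± 0.63, edgeR adjusted p = 0.526), and Mbp, myelin basic protein, at 126 and 130 and at 89.6, 63.2 and 101 (-0.60 ± 0.20, 0.538). The unstressed libraries spread widely for Mal, at 53.9 and 24.9 CPM. Of 6 oligodendrocyte precursor genes tested (of 10), 3 were lower, among them Cspg5, a chondroitin sulfate proteoglycan, at 25.3 and 27.2 and at 14.1, 5.97 and 8.1 CPM (-1.48 ± 0.35, 0.175), and Sox10, the transcription factor of the lineage (-2.02 ± 0.74, 0.676).

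Neuronal genes had 1 of 13 tested lower at that p (the long noncoding RNA Meg3), 0 higher and a median of -1.12. Meg3 was at 11 and 12.9 CPM in CUMS and at 4.83, 3.58 and 2.7 in CUMS_M (-1.69 ± 0.60, edgeR adjusted p = 0.568), while unstressed library 1 held 20.5. Slc17a7, a glutamate transporter of synaptic vesicles, was at 2.54 and 3.33 and at 0.579, 1.79 and 0.958 CPM (-1.41 ± 0.68, 0.903). The median of the neuron list was below 0, but 12 of its 13 genes did not reach that p, and of all genes 4.13% were lower at it.

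**Figure D4:**
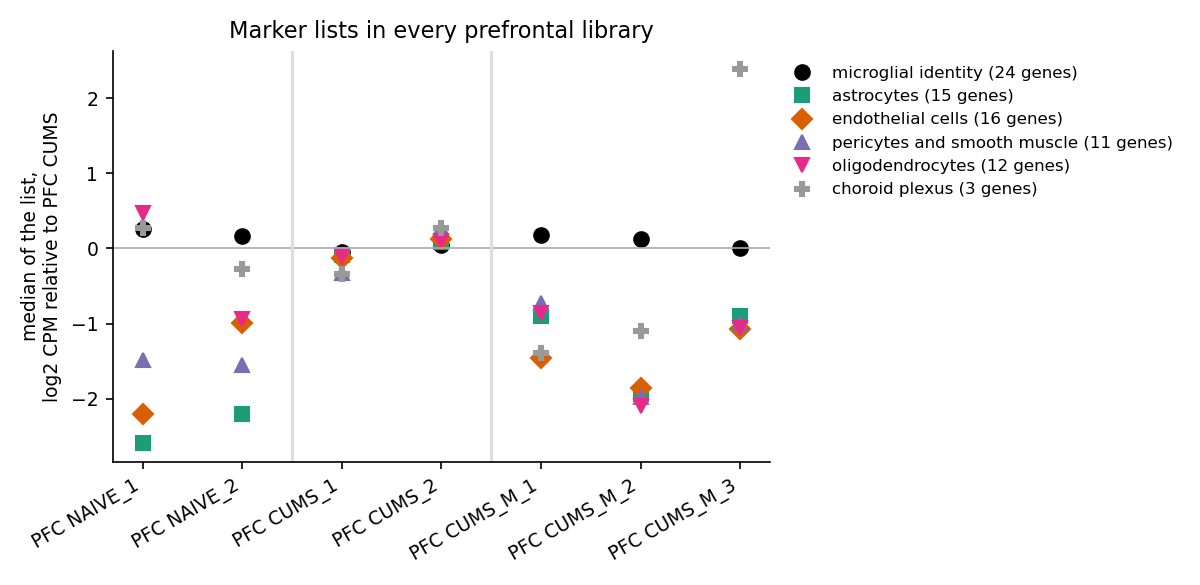
Median of 6 marker lists in each PFC library (vertical axis, log2 CPM of each gene relative to the mean of PFC CUMS). The astrocyte, endothelial, pericyte and oligodendrocyte medians lie below 0 in all 3 CUMS_M libraries, with the lowest of the 3 in CUMS_M 2, the microglial medians stay within 0.3 of 0, and the choroid plexus median is at 2.38 in CUMS_M 3.

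These medians stayed below 0 with each treated library left out. Without PFC CUMS_M 3, the library with choroid plexus RNA, they were -1.93 for the endothelial, -1.57 for the pericyte, -1.43 for the astrocyte and -1.38 for the oligodendrocyte list. Without PFC CUMS_M 2, which held the lowest medians, they were -1.44, -1.34, -1.04 and -1.07 in the same order. The counts moved more than the medians. Over the 12 alternatives the number lower at an unadjusted p under 0.05 ran from 11 to 13 for the astrocyte and 8 to 12 for the endothelial list, but from 3 to 8 for the pericyte, 3 to 9 for the basement membrane, 2 to 11 for the oligodendrocyte, 1 to 4 for the precursor and 0 to 5 for the neuron list. Without PFC CUMS 2 the pericyte, basement membrane and oligodendrocyte counts were 3, 3 and 2, without PFC CUMS_M 2 they were 4, 3 and 2, without PFC CUMS 1 they were 6, 4 and 3, and without PFC CUMS_M 3 they were 4, 9 and 4.

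The ligand and receptor families of the called genes were mixed. Of 24 plexin, semaphorin and neuropilin genes tested (of 30), 4 were lower at an unadjusted p under 0.05 and 1 higher, with a median of -0.09. The 4 include the called Plxnb1, and of all genes 4.13% were lower and 1.43% higher at that p. Sema3c, a secreted semaphorin, was at 4.38 and 5.64 CPM in CUMS and at 1.06, 0 and 1.04 in CUMS_M (-2.75 ± 0.60, edgeR adjusted p = 0.139). Plxnb2, the abundant plexin of these cells (named after its values were seen), was at 1790 and 1756 and at 1804, 2028 and 1756 CPM (0.07 ± 0.09, 0.9997), with overlapping groups.

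Of 13 pleiotrophin and midkine ligand and receptor genes tested (of 15), 4 were lower and 1 higher. Ptprb, a receptor phosphatase of endothelial cells, was at 18.8 and 20.6 CPM in CUMS and at 3.28, 3.58 and 5.83 in CUMS_M (-2.20 ± 0.45, edgeR adjusted p = 0.147). Ptprz1, the pleiotrophin receptor phosphatase of glia (named after its values were seen), was at 24.9 and 24.9 and at 8.2, 2.51 and 11.1 (-1.75 ± 0.44, 0.259). Ptn, Ptprb and Ptprz1 were lower in all 3 treated libraries than in either CUMS library, as were 11.5% of all genes. They were picked by their p-values or after their values were seen, so that this is no separate result about the family. Of the 13 genes, however, 4 had a log2 fold change above 0, and the median was -0.30.

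Of 14 claudin and tight junction genes tested (of 16), 2 were lower at that p, the called Cldn5 and the endothelial adhesion molecule Esam (-1.74 ± 0.52, edgeR adjusted p = 0.36), and 0 were higher. Of all genes 4.13% were lower and 1.43% higher at that p. Tjp1, the scaffold ZO-1 (named after its values were seen), was at 352 and 311 CPM in CUMS and 350, 390 and 355 in CUMS_M (0.14 ± 0.09, 0.9997), with overlapping groups. In the VEGF and angiopoietin list (9 of 13 tested) 3 were lower (1 of them, Flt4, reached 10 counts only in CUMS libraries) and 0 higher, among them Tek, the angiopoietin receptor, at 5.07 and 6.47 and at 0.386, 0 and 1.57 CPM (-3.03 ± 0.85, 0.36).

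Of 14 Notch pathway genes, 4 were lower and 0 higher (4.13% and 1.43% of all genes). In this list 4 of the 14 reached 10 counts only in CUMS libraries, 3 of the lower ones among them. Notch3, the Notch receptor of mural cells, was at 6.23 and 7.4 CPM in CUMS and at 1.16, 1.91 and 3.13 in CUMS_M (-1.70 ± 0.42, edgeR adjusted p = 0.177). Hey2, a Notch target and 1 of those 3, had 23 counts in the CUMS libraries and 0 in the CUMS_M libraries. This is at least 9.72-fold lower against a floor of 3 counts over the treated group (counting error only). In the TGF-β list (19 of 21 tested) 4 were lower and 0 higher, and 2 of those 4, Lrrc32 and Ltbp1, reached 10 counts only in CUMS libraries. Lrrc32, which anchors latent TGF-β at the cell surface, had 35 counts in CUMS and 0 in CUMS_M, at least 14.8-fold lower. Both Hey2 and Lrrc32 entered the test through the group where they are high, which the fold bounds do not account for. Neither of them passed the threshold (0.301 for Hey2 and 0.152 for Lrrc32, edgeR adjusted p).

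Among secreted and extracellular factors, the chemokine Cxcl12 was at 18.6 and 25.9 CPM in CUMS and at 3.86, 5.49 and 6.09 in CUMS_M (-2.11 ± 0.59, edgeR adjusted p = 0.382). It was the only 1 of 19 chemokine genes at an unadjusted p under 0.05 in either direction, near the 5.56% of all genes at that p. Adamts4, a protease of proteoglycans, was at 6.92 and 7.77 and at 1.83, 1.67 and 1.31 CPM (-2.19 ± 0.55, 0.203), and Timp3, an inhibitor of metalloproteinases, at 18.1 and 20.8 and at 6.95, 4.9 and 12.6 (-1.23 ± 0.39, 0.468). These were the 2 of 16 metalloproteinase and inhibitor genes lower at that p, as were 4.13% of all genes. Mmp9, the gelatinase of neutrophils and activated microglia, was at 89.7 and 56.5 and at 143, 91.1 and 28.6 CPM (0.26 ± 0.78, 0.9997), beside a neutrophil list that summed to 2984 and 2340 and 4904, 2931 and 1323 CPM.

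Genes that mark microglia had small log2 fold changes. Of 24 microglial identity genes, 21 had a log2 fold change above 0 (54.5% of all genes did), 2 were higher at an unadjusted p under 0.05, 0 were lower, and the median was 0.10, with all 24 between -0.04 and 0.22. Itgam had a log2 fold change of 0.21 ± 0.09 (edgeR adjusted p = 0.72), and Aif1, the calcium-binding protein Iba1, was at 245 and 288 and at 315, 318 and 301 CPM (0.22 ± 0.10, 0.796). P2ry12, the ADP receptor, was at 2787 and 3002 and at 3517, 3243 and 2694 (0.12 ± 0.13, 0.9997), and Tmem119, a microglial surface protein, at 3866 and 4495 and at 4475, 4840 and 4194 (0.11 ± 0.10, 0.9997). Treated and untreated libraries overlapped for P2ry12, Tmem119 and Cx3cr1.

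On the higher side the smallest p belonged to Gm37472, a gene model without a known product, at 11.2 and 11 CPM in CUMS and at 23.1, 19.6 and 18.4 in CUMS_M (0.87 ± 0.19, edgeR adjusted p = 0.139), which passed the threshold in DESeq2 (0.0082) but not in the fit of 5 libraries (0.0815). Mir142hg, the host transcript of the blood-lineage microRNA miR-142, was at 41.2 and 51.4 CPM in CUMS and at 69.2, 87 and 63.8 in CUMS_M (0.66 ± 0.16, edgeR adjusted p = 0.175). Runx1, a transcription factor of blood cell development, was at 150 and 149 and at 170, 200 and 194 (0.33 ± 0.10, 0.337). The groups did not overlap for any of the 3 genes, which the rule for naming Mir142hg and Runx1 required. On this side 0 genes passed the threshold.

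Of similar rank was Sgk1, a kinase induced by glucocorticoids, at 510 and 494 CPM in CUMS and 638, 722 and 578 in CUMS_M (0.36 ± 0.11, edgeR adjusted p = 0.374). Prkag2, a subunit of the energy sensor AMPK (0.75), Card6, a CARD-domain protein (0.34), and B4galt5, a galactosyltransferase of glycolipids (0.46), had adjusted p-values of 0.356, 0.382 and 0.39. All 4 had non-overlapping groups, which the rule for naming them required.

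The transcript Gm42418 was the only gene that was higher both in DESeq2 (adjusted p = 0.000179) and in the fit of 5 libraries (0.00244). It was named after its values were seen. It was at 3620 and 4200 CPM in CUMS, 8000, 6820 and 7850 in CUMS_M and 11700 and 11800 in NAIVE (log2 fold change 0.95, edgeR adjusted p = 0.149). It overlaps, on the opposite strand, a gene annotated as ribosomal RNA at chr17:39846353-39848827, and the strand setting of the counting is not given in the sources used here, so that reads of the 2 cannot be told apart. With it and the annotated ribosomal RNA genes left out, the same 3 genes were called.

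Few inflammatory genes reached an unadjusted p under 0.05 in either direction, as did few of all genes (1.43% higher and 4.13% lower). In lists of this size, counts of 0 or 1 lie near those shares and do not set the genes apart. Of 20 cytokine and receptor genes tested, 0 were lower and 0 higher at that p, while 16 had a log2 fold change above 0 (54.5% of all genes did), with a median of 0.08. Il1b, the cytokine interleukin-1 beta, was at 49 and 47.6 CPM in CUMS and at 30.7, 44.4 and 39.7 in CUMS_M (-0.34 ± 0.26, edgeR adjusted p = 0.9997), which did not overlap. Tnf was at 28.3 and 35.3 and at 33.7, 56.1 and 33.5 (0.37 ± 0.36, 0.9997), with overlap, and Il6, a cytokine of stress and inflammation, at 2.23 and 3.14 and at 4.73, 4.06 and 5.05 (0.79 ± 0.44, 0.9997). The groups of Il6 did not overlap either, in the higher direction. Of all genes 11.5% were lower and 9.57% higher without overlap. The lists of NF-κB subunits (1 higher, Tnip1, of 16), Toll-like receptors (0 of 20), inflammasome genes (0 of 16), MHC class II (0 of 9), MHC class I (0 of 16) and disease-associated microglia genes (0 of 19) held 0 lower genes at that p. Log2 fold changes above 0 were found for 12 of 16 NF-κB genes (median 0.04), 14 of 16 MHC class I genes (0.08), 12 of 20 Toll-like receptor genes (0.03), 8 of 16 inflammasome genes, 4 of 9 MHC class II genes and 8 of 19 disease-associated microglia genes. In the complement list 2 of 15 were higher, Itgam and the C5a receptor C5ar1, at 91.5 and 107 and at 142, 113 and 114 CPM (0.31 ± 0.13, 0.732).

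Type I interferon genes lay slightly lower on average: 19 of 21 tested had a log2 fold change below 0 (45.5% of all genes did), with a median of -0.17. At an unadjusted p under 0.05, 2 were lower (4.13% of all genes). Usp18, the protease that removes ISG15 and restrains interferon signalling, was at 7.69 and 11.5 CPM in CUMS and at 4.73, 4.66 and 6.01 in CUMS_M (-0.89 ± 0.27, edgeR adjusted p = 0.377). Ifi204, a nucleic-acid sensor, was at 12.4 and 14.6 and at 7.33, 5.61 and 11.8 (-0.70 ± 0.32, 0.842). The median of the list moved between -0.33 and -0.11 over the alternatives, and its number of lower genes between 0 and 4. Relative to the CUMS mean, the list medians of single libraries overlapped. They were -0.0574 and 0.0552 in CUMS and -0.174, -0.501 and -0.0353 in CUMS_M, lowest in CUMS_M 2.

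Of 23 cholesterol and fatty acid synthesis genes, 4 were lower at that p and 0 higher. For this list and the next, the shares over all genes are 4.13% lower and 1.43% higher. Cyp51, the lanosterol demethylase, was at 17.4 and 19.2 CPM in CUMS and at 13.4, 9.55 and 12.4 in CUMS_M (-0.63 ± 0.20, edgeR adjusted p = 0.425). The unstressed libraries held 19.6 and 15 CPM. Among 21 phagocytosis genes 2 were lower, Mfge8, which bridges apoptotic cells to phagocytes, at 63.6 and 80.4 and at 56.2, 42.9 and 46.6 (-0.57 ± 0.17, 0.38), and Megf10, an engulfment receptor of astrocytes (-1.76 ± 0.53, 0.372). The list of 74 cytosolic ribosomal proteins had 72 above 0 and a median of 0.16, with 2 higher at that p, and over the alternatives its median ran from -0.05 (without PFC CUMS 1) to 0.47 (without PFC CUMS 2) and its number of higher genes from 0 to 34 (34 without PFC CUMS 2).

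The early response to neuronal activity, stress hormones and other stimuli is carried by immediate early genes such as Fos and Egr1, and Per1 belongs both to the circadian clock and to the direct targets of the glucocorticoid receptor. Per1 was the gene whose response to minocycline differed between PFC and HC past the adjusted threshold, the single call in that test (0.00759% of the genes). In PFC it was at 169 and 166 CPM in CUMS and at 182, 266 and 209 in CUMS_M (0.39 ± 0.14, edgeR adjusted p = 0.585), and in HC at 187, 187 and 195 in CUMS and at 88.9, 97.1 and 97.4 in CUMS_M (-1.004 ± 0.129, edgeR adjusted p = 0.00419). The fall in HC passed the threshold, as the single call there (0.00759% of the genes), and the PFC difference did not. In neither region did CUMS_M and CUMS libraries overlap, and the directions were opposite. Unstressed libraries held 140 and 167 CPM in PFC and 127 and 92.4 CPM in HC, so that in HC the CUMS libraries were the high ones. The difference of the log2 fold changes, PFC minus HC, was 1.39 ± 0.19 (edgeR adjusted p = 0.0133). Leaving out either PFC CUMS library, HC CUMS 3 or any one of the 3 HC CUMS_M libraries made it miss the threshold (adjusted p up to 0.256), with the difference staying between 1.23 and 1.51. The HC fall itself missed the threshold without HC CUMS_M 1 (0.0712).

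Of 24 immediate early genes, 18 had a PFC log2 fold change above 0 and the median was 0.20, whereas in HC the median was -1.09. The difference between regions was higher in PFC at an unadjusted p under 0.05 for 17 of the 24 (1.28% of all genes), and 0 passed the adjusted threshold. Within PFC the 1 gene at that p was Egr3, an early growth response factor, at 8.99 and 10.3 CPM in CUMS and at 14.7, 30.2 and 18.1 in CUMS_M (1.12 ± 0.37, edgeR adjusted p = 0.463). Fos, at 1887 and 1651 and at 2036, 3361 and 1769, and Egr1, at 2027 and 1607 and at 2716, 3523 and 2034 CPM (both named after their values were seen), were highest in CUMS_M 2. The PFC median ran from -0.05 to 0.37 over the alternatives.

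Of 20 glucocorticoid-responsive genes, 2 were higher at that p in PFC (Sgk1 and Per1) and 1 lower, against 1.43% and 4.13% of all genes. The median was 0.03 in PFC and -0.42 in HC. Fkbp5, the co-chaperone of the glucocorticoid receptor, was at 131 and 118 CPM in CUMS and at 115, 141 and 122 in CUMS_M (0.02 ± 0.15, edgeR adjusted p = 0.9997). Per2, the partner of Per1 in the clock, was at 8.46 and 8.97 and at 10.1, 11.6 and 19.8 (0.68 ± 0.29, 0.747), highest in CUMS_M 3.

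**Figure D5:**
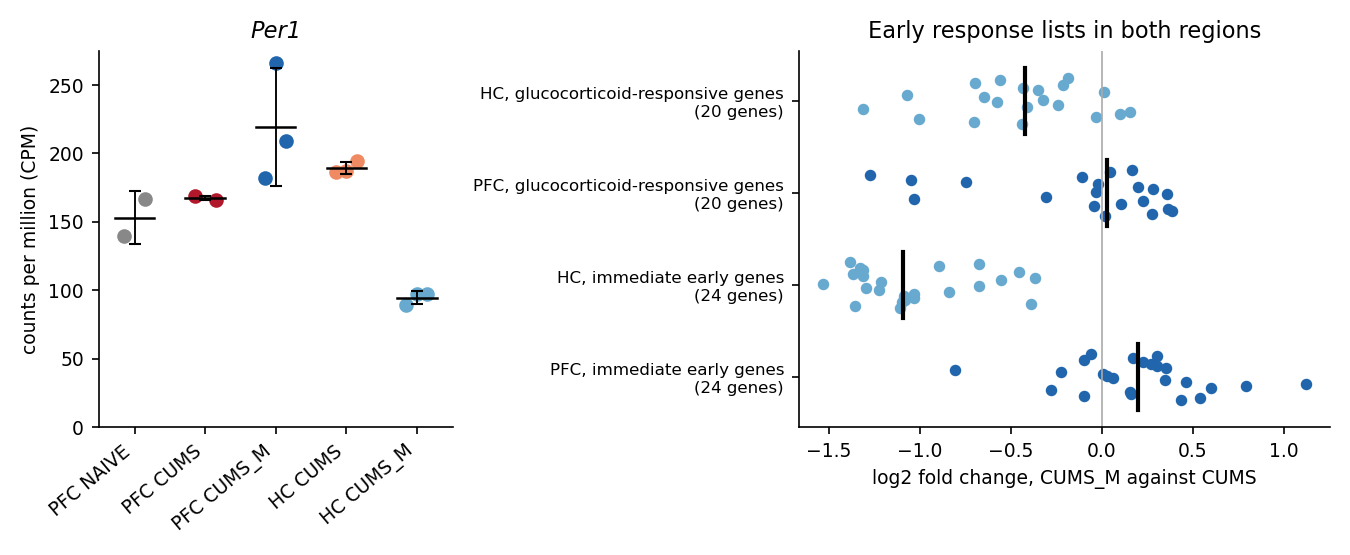
Left, CPM of Per1 in each library (points) of 5 groups with mean (line) and SD (bars). Right, log2 fold change of CUMS_M against CUMS for each gene of 2 early response lists in PFC (dark blue) and HC (light blue), with list medians (black); the immediate early median is 0.20 in PFC and -1.09 in HC.

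Some genes of interest in this setting were under the reach of these libraries. Arg1, Bdnf, Ido1 and Timp1 had 0 counts in all 5, and Nos2, the inducible nitric oxide synthase, had 15 counts in all. No difference could be detected for them at this depth.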

How the data were processed

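RNA of CD11b+ cells was measured by RNA-seq in 15 libraries of the minocycline experiment, of which 5 form the comparison. The deposited table holds raw counts per gene made by the authors. Per the submitters' processing notes the tools were Trimmomatic 0.36, STAR 2.6.1b, Picard 2.17.1, featureCounts 1.5.3 and DESeq2 1.24.0 with the genome mm10 (GRCm38), while annotation release and strand setting are not given in the sources used here, so that overlapping genes may share reads. The table of the enrichment experiment was not used.

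From these counts, genes with at least 10 counts in at least 2 of the 5 libraries were kept, and all 13169 had a symbol in GENCODE M21. The edgeR 4.0.16 quasi-likelihood test (R 4.3.3, TMM scaling, robust estimation) fitted 1 mean per group over all 15 libraries, which share an estimate of the spread. Adjustment followed Benjamini-Hochberg over the 13169 genes, at a threshold of 0.05. The SE of a log2 fold change is its size divided by the square root of the F statistic. CPM are counts per 1000000 of the scaled library size. List sums are of CPM.

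Members and the 60 gene lists were chosen with earlier results of these data known. The text names all genes past the threshold, the 10 of smallest p in each direction with groups that do not overlap (leaving out gene models known only by a Gm number, clone name or accession, and pseudogenes), the 2 of smallest p per list, the 5 of smallest p for the difference between regions and a fixed set of microglial, vascular and inflammatory genes, from which only a part is printed, and some are not reported here. Genes outside this rule are marked. Alternatives were DESeq2 size factors, no filter, filterByExpr, the DESeq2 1.42.0 Wald test, only the libraries compared, a replicate block, each library left out and, chosen after seeing the data, no ribosomal RNA genes. The test was checked on simulated data. Replicates of a group differed beyond sampling noise (chi-square per degree of freedom 9.04 to 18.7), so that none was a repeat deposit.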

Additional observations from a re-analysis of the deposited data

Results flagged for a closer look

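Per1 is listed here because its response to minocycline differed between the brain regions by a test of the difference itself. The log2 fold change of CUMS_M against CUMS in PFC minus that in HC was 1.39 (edgeR adjusted p = 0.0133). Per1 was higher in 3 of 3 PFC CUMS_M libraries than in either PFC CUMS one, and lower in 3 of 3 HC CUMS_M libraries than in any HC CUMS one. Over the libraries left out in turn the adjusted p ran from 0.00262 to 0.256.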

How the results depend on the processing

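The number of genes called in PFC was 3 with DESeq2 size factors, filterByExpr or no ribosomal RNA genes, but 170 without a count filter (159 lower), 86 in the DESeq2 Wald test, 68 with only the 5 libraries compared and 0 with the replicate block, and 0 to 9 with each library left out. The 3 genes were among those called in each of the settings with 68 to 170 calls, and 164 of the 170 were in the filtered table too. For the difference between regions the number was 1 with DESeq2 size factors, filterByExpr, only the 11 stressed libraries or no ribosomal RNA genes, 37 without a filter, 2 in DESeq2, 0 with the replicate block and 0 to 1 with each library left out. The cause was not tested.

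The replicate numbers of the labels are not stated to mark shared animals, and deviations of same-numbered PFC libraries were uncorrelated (r = -0.00823 for number 1 and -0.0574 for number 2). With the block, Plxnb1 was at -1.80 (adjusted p = 0.164), Cldn5 at -2.32 (0.188) and Ptn at -1.87 (0.164).

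Of the genes named, Fkbp5 changed sign with the replicate block (-0.058), without PFC CUMS 2 and without PFC CUMS_M 2, with a range of -0.071 to 0.0937 over the libraries left out. Mmp9 changed sign without PFC CUMS 2 and without PFC CUMS_M 1, with a range of -0.305 to 0.677. The endothelial, pericyte, astrocyte and oligodendrocyte medians were below 0 under each of the 12 alternatives. Depth limits the low-level genes: under 5 CPM the median SE of a log2 fold change was 0.697, against 0.110 at 100 CPM or more.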
